A study of Mus musculus with 2 samples.

Results

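Ffar2 (ENSMUSG00000051314), which encodes free fatty acid receptor 2, was followed in single B cells from female C57BL/6J mice, sorted out of the lamina propria of the colon, the connective tissue under the epithelium. It is 1 of the 31053 genes in the count matrices and was chosen for its pattern in these libraries: its detection, the depth, heavy chain state and interferon gene levels of its positive cells all entered the choice, so the values given here are descriptions and carry no test. The day 14 group received 2% dextran sulfate sodium (DSS), a salt that injures the colonic epithelium, in drinking water for 7 days and then recovered for 7 days. The day 0 group was untreated by the titles and the growth protocol, although its treatment tag also reads DSS. Each group is 1 library of the 10x Genomics Chromium 3′ kit (version 2), and how many mice went into each is not stated in the labels. Transcripts are counted by unique molecular identifiers (UMIs), so that 1 UMI stands for 1 captured RNA molecule. A Ffar2-positive cell is a cell with at least 1 Ffar2 UMI, and there were 79 among 4692 cells at day 14 and 7 among 3290 cells at day 0. With 1 library per day there was no replicate, and every interval below is a 95% interval that covers counting error only.

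FFAR2, also known as GPR43, is a G protein-coupled receptor on the cell surface that binds acetate, propionate and butyrate, the short-chain fatty acids that gut bacteria release from dietary fibre. It signals through Gi/o proteins, which lower cyclic AMP, and through Gq proteins, which release calcium by way of phospholipase C beta. It is best known in neutrophils and other myeloid cells, where it guides migration, and in enteroendocrine cells, where it promotes hormone release. In mice, acetate has been tied to gut IgA responses through this receptor, in part by way of dendritic cells.

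The day 14 and day 0 libraries held 12317052 and 8690102 UMIs in the cells kept by the authors, with medians of 2241.5 and 2278.5 UMIs per cell. Levels are given in CPM, a gene's UMIs scaled to the total UMIs of the same cells, where the total leaves out immunoglobulin genes and the genes encoded in mitochondria. The label of a B cell library held for the Ffar2-positive cells: at day 14, 79 of 79 had a UMI of Cd79a, a signalling chain of the B cell receptor, and 88.6% had a UMI of Ms4a1, which encodes CD20. Of the barcodes, 17 were shared between the libraries, and 0 of these held a Ffar2 UMI.

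The gene lies on mouse chromosome 7 (mm10), minus strand, chr7:30818348-30823775, and GENCODE M21 gives it 6 transcripts. In the longest, the coding sequence of 990 bases lies within the last exon, chr7:30818348-30820287. Ffar3, a second short-chain fatty acid receptor, lies 30554 bases away on the same strand, and Ffar1, the long-chain fatty acid receptor, 33614 bases away. Beyond Ffar1, at a gap of 3837 bases, lies the B cell inhibitory receptor gene Cd22. The 3′ kit reads the transcript end, and of the 2242 windows of 60 bases in the longest Ffar2 transcript, 11 occur on the same strand in transcripts of other genes. Ffar1 was among these other genes, with 4 shared window sequences. All 11 windows lie between transcript bases 1619 and 1688. Of the 341 windows in the last 400 bases 0 were shared, so identical stretches of that length were not found where the kit reads most. Copies with mismatches were not searched for.

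Because Ffar2 went together with interferon-induced genes in these cells, the sequence before its start sites is shown beside that of Serpina3g. Of those genes Serpina3g had the highest ratio of Ffar2-positive over all Ffar2-negative cells at day 14. Under some alternatives AW112010 or Psmb9 stood above it. The first 2 lines are the 250 bases before the outermost Ffar2 start, chr7:30823776-30824025, and before an inner start, chr7:30821193-30821442, both read on the minus strand. The third line is the window before the Serpina3g start, chr12:104235897-104236146, on the plus strand. Sequences are from RefSeq, build GRCm38.p6, 5′ to 3′, and capitals mark a match to the gamma-activated site (GAS), a motif of genes that respond to interferon-gamma.
Ffar2 outermost start: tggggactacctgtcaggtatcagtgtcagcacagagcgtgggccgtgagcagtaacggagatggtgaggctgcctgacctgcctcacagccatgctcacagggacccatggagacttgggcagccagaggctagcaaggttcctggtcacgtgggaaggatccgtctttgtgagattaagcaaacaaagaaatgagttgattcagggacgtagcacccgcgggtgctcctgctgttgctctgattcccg
Ffar2 inner start: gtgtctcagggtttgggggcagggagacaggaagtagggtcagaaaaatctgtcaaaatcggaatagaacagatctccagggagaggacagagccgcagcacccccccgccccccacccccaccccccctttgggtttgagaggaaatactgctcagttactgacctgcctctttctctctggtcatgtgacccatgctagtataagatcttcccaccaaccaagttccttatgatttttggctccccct
Serpina3g: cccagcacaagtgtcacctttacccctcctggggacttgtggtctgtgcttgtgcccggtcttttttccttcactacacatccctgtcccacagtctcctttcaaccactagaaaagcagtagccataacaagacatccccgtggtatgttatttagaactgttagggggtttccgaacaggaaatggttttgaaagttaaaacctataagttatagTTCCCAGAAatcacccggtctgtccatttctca
The GAS was searched as TTCNNNGAA and the interferon-stimulated response element (ISRE) by its core repeat, on both strands, in windows of the 250 bases before each start. At the 4 Ffar2 starts in the table, 0 windows held either motif. The single Serpina3g window held the 1 GAS match shown and no ISRE match. Among all 32851 windows of the table, 7.02% held a GAS match and 2.98% an ISRE match. A match is a description of letters, and the absence of one covers only these windows.

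Ffar2 RNA was scarce in both libraries and higher at day 14. The day 14 library held 89 Ffar2 UMIs, 7.67 CPM (6.16 to 9.44), and the day 0 library held 7, 0.865 CPM (0.348 to 1.78). Day 14 over day 0 the ratio was 8.87 (4.13 to 22.7), a log2 difference of 3.15. Ratios were taken for the 8924 genes that reached 50 UMIs in the 2 libraries together, and in 0.0672% of them, Ffar2 included, the ratio was at least as high. A ratio of at least 1.5 was seen in 1.31% of these genes, and one of 1.5-fold or more in the lower direction in 4.94%, with a median log2 difference of -0.09. The gene stood at rank 6 both by ratio and by the lower bound of its interval. It passed the minimum of 50 UMIs only through the 89 UMIs of day 14 and was chosen with its counts known. Its rank is therefore a description and no support for a change. Among the alternative scalings and cell sets run on it, the ratio lay between 6.82, without the cells of the cluster led by interferon-gamma genes, and 18.3, after thinning each cell to 1000 UMIs. The last rests on 26 UMIs at day 14 and 1 UMI at day 0.

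The share of cells with a Ffar2 UMI was 1.68% (1.34% to 2.09%) at day 14 and 0.213% (0.0856% to 0.438%) at day 0. Most positive cells held a single molecule: at day 14, 70 cells had 1 UMI, 8 had 2 and 1 had 3, and at day 0 all 7 had 1. After thinning each cell to 1000 UMIs, which left out 63 cells at day 14 and 34 at day 0, Ffar2 was seen in 26 of 4629 cells (0.562%) and in 1 of 3256 cells (0.0307%). A level near 1 UMI gives no reading of the change at that depth. As a background for the share, barcodes with at least 5 UMIs of T cell markers, which the authors left out of their cell set, held Ffar2 in 0 of 51 at day 14 and in 0 of 59 at day 0, at medians of 3006 and 3292 UMIs. A count of 0 there allows shares of up to 5.88% and 5.08% on a limit of 3 counts, or 6.98% and 6.06% on the exact interval, so the background was not bounded below the share in B cells. More cells with the RNA and more RNA per cell cannot be told apart when nearly all positive cells hold 1 UMI.

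**Figure D1:**
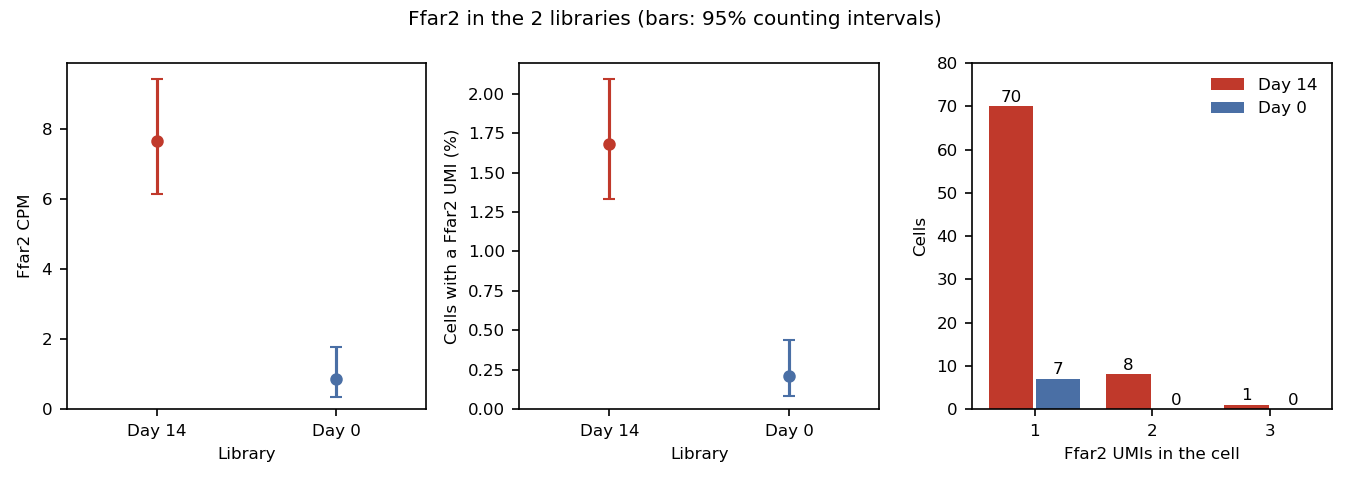
Ffar2 in the day 14 and day 0 libraries: CPM (left), percent of cells with a UMI (middle) and number of cells by their Ffar2 UMIs (right). Points are 1 library each, with 95% counting intervals; the level was 7.67 CPM at day 14 and 0.865 CPM at day 0, and 70 of the 79 positive cells at day 14 held 1 UMI.

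Detection went with the depth of the cell. At day 14 the 79 positive cells had a median of 3147 UMIs and 1069 genes, and the 4613 negative cells 2232 UMIs and 856 genes. At day 0 the medians were 2700 UMIs in the 7 positive and 2276 UMIs in the 3283 negative cells. Cells holding over 2 times the median UMIs of the library made up 25.3% of the positive and 6.63% of the negative cells at day 14. The level per UMI was higher in deeper cells as well as the share: at day 14 it was 4.63 CPM in cells under 1500 UMIs, 4.22 (2.61 to 6.46) from 1500 to 2499, 9.61 (6.73 to 13.3) from 2500 to 3999 and 12.3 (8.28 to 17.5) in cells of 4000 or more. At day 0 the highest of the same 4 bins was 1.44 CPM (0.391 to 3.68). Day 14 was above day 0 in each bin, though under 1500 UMIs the day 0 count of 0 in 128 cells gives an upper limit of 24.9 CPM. Leaving out cells that exceeded their cluster's median UMIs by over 2 times, where 2 cells may share a droplet, gave 69 and 6 UMIs and a ratio of 8.34 (3.64 to 23.5).

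**Figure D2:**
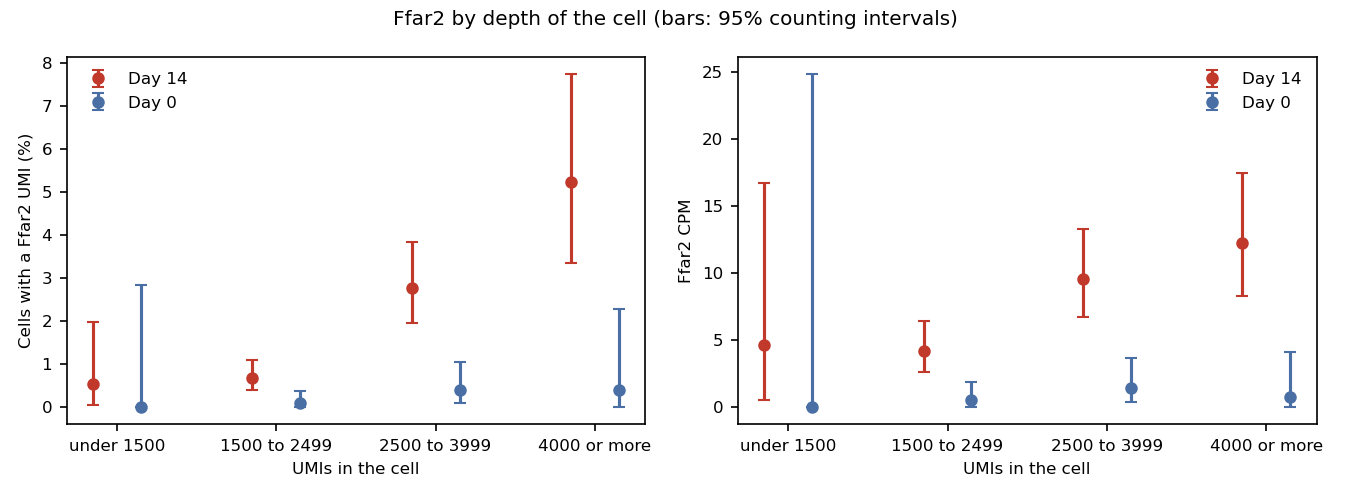
Ffar2 by the number of UMIs in the cell, as percent of cells with a UMI (left) and as CPM (right), for day 14 and day 0. Points are pooled cells of 1 library with 95% counting intervals; at day 14 the share was 0.554% under 1500 UMIs and 5.23% at 4000 or more.

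The heavy chain state of a cell was read from its constant region genes. A cell was called switched when the IgA, IgE and IgG genes held at least 3 UMIs and more than Ighm and Ighd, otherwise IgD with any Ighd UMI, otherwise IgM without IgD with at least 3 Ighm UMIs. At day 14, Ffar2-positive cells were mostly unswitched, with 40 of 79 (50.6%) carrying IgD, 25 (31.6%, 21.6% to 43.1%) IgM without IgD, 4 (5.06%, 1.40% to 12.5%) switched and 10 not called. Among the negative cells of that day 61.5% carried IgD, 16.4% (15.4% to 17.5%) IgM without IgD and 2.02% were switched. The IgM call needs 3 Ighm UMIs, which deeper cells reach more readily, and the positive cells were the deeper ones. The part of depth in these shares was not tested. Of the 4 switched positive cells, 3 had Igha and 1 had Ighg1 as the leading constant gene. At day 0 the 7 positive cells were 2 switched, 1 IgM without IgD, 1 IgD and 3 not called, whereas 59.4% of the negative cells carried IgD and 3.81% were switched.

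Read as levels, Ffar2 stood at 15.02 CPM (10.1 to 21.4) in IgM cells without IgD at day 14 and at 0.645 (0.0163 to 3.59) in those of day 0. In IgD cells it stood at 6.09 (4.42 to 8.17) at day 14 and at 0.212 (0.00536 to 1.18) at day 0. In switched cells the level was 7.75 (2.11 to 19.8) from 4 UMIs at day 14 and 3.44 (0.416 to 12.4) from 2 UMIs at day 0, which gives 2.25 (0.323 to 24.9). In cells with no call it was 5.93 (2.96 to 10.6) and 2.43 (0.502 to 7.11), a ratio of 2.44 (0.644 to 13.6). The ratios of day 14 over day 0 in IgM cells without IgD and in IgD cells were 23.3 (3.87 to 950) and 28.8 (4.90 to 1162), whose denominators are 1 UMI each. The difference between states was not tested.

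Of the 97 switched cells at day 14, the 65 with at most 1 interferon-gamma list UMI held all 4 Ffar2 UMIs, 10.4 CPM (2.84 to 26.6), and the 32 with 2 or more held 0, which leaves an upper limit of 27.9. The unswitched cells, those with no call included, ran the other way, with 11.8 CPM (8.52 to 15.9) at 2 or more list UMIs and 5.69 (4.10 to 7.70) at 0 or 1. In the switched cells the numbers are too small to set 1 level above the other.

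**Figure D3:**
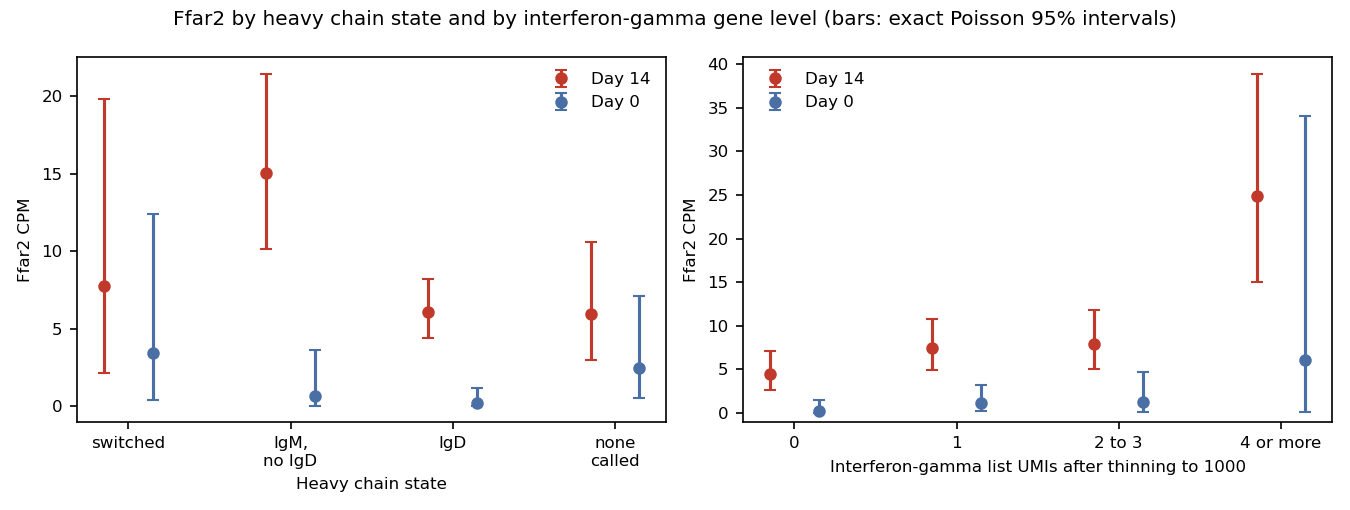
Ffar2 CPM by heavy chain state (left) and by the UMIs of the interferon-gamma gene list in the cell after thinning to 1000 UMIs (right), at day 14 and day 0, with exact Poisson 95% intervals. At day 14 the highest levels were 15.02 in IgM cells without IgD and 24.9 in cells with 4 or more list UMIs.

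Interferon-gamma is the T and NK cell cytokine that induces guanylate-binding proteins, immunity-related GTPases and the antigen-presentation machinery. A list of 32 genes associated with it was read in cells thinned to 1000 UMIs, so that depth did not set the list's count. At day 14 Ffar2 stood at 4.50 CPM (2.67 to 7.11) in the 1634 cells with no list UMI, 7.45 (4.95 to 10.8) in the 1501 with 1, 7.94 (5.09 to 11.8) in the 1183 with 2 to 3, and 24.9 (14.99 to 38.9) in the 311 with 4 or more. The highest value was that of the last bin, and neighbours among the lower 3 overlapped in their intervals. At day 0 the levels in the same order were 0.273, 1.11, 1.29 and 6.12 CPM, from 1, 3, 2 and 1 UMIs. Day 14 was above day 0 at each list level, including the cells with no list UMI, where the ratio was 16.5 (2.60 to 687). In the 4 or more bin the ratio was 4.07 (0.647 to 169).

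Cells were clustered without Ffar2. The cluster with the highest Ffar2 level at day 14 was led by Tgtp2, Serpina3f, Ifi47 and Serpina3g, and 9 of its 10 leading genes are on the interferon-gamma list. It held 26 Ffar2 UMIs in 21 of 397 cells, 27.1 CPM (17.7 to 39.7), and with that 26.6% of the positive but 8.15% of the negative cells of day 14. At day 0 only 14 cells fell in it, with 0 Ffar2 UMIs and an upper limit of 113 CPM, so the days cannot be compared there and the cluster is nearly a feature of 1 library. Of the 9 cells with 2 or more Ffar2 UMIs, 5 were in it and 3 in a cluster led by Cfp, Pa2g4 and Mif. The cell with 3 Ffar2 UMIs was an IgM cell without IgD of the Cfp cluster, with 8178 UMIs, 29 of them on the interferon-gamma list.

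Outside the interferon cluster Ffar2 was present at lower levels in every other cluster of day 14. A cluster led by Gm6377, Rasgef1b and Gpr183, the last an oxysterol receptor that positions B cells, held 13 UMIs, 7.87 CPM (4.19 to 13.5), and 0 UMIs in its 950 day 0 cells. The interval of the ratio starts at 4.34. The Cfp cluster held 16 UMIs, 9.12 CPM (5.21 to 14.8), against 0 UMIs in its 215 day 0 cells, with a ratio interval that starts at 1.61. The largest cluster, led by Slfn2 and Tifa, held 13 UMIs at day 14, 4.47 CPM (2.38 to 7.65), and the others held 1 to 4 UMIs each, too few to order them.

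A small cluster led by S100a6, Rgs1, Cd80 and Nt5e held most of the Ffar2 of day 0. It had 4 of the 7 positive cells of that day among 170 cells, 7.08 CPM (1.93 to 18.1), and 3 positive cells among 114 at day 14, 8.13 CPM (1.68 to 23.8). There the ratio was 1.15 (0.168 to 6.79). Cd80 encodes a costimulatory ligand and Nt5e the ectoenzyme CD73, both known from memory B cells. The 4 UMIs are too few to say that the days differ less there than elsewhere.

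When the cells were clustered without the interferon genes as well, Ffar2 at day 14 was highest in a cluster led by S100a6, Cfp, Cd9 and Fcrl5, with 27 UMIs in 21 of 335 cells, 20.7 CPM (13.6 to 30.1). Its 201 day 0 cells held 0, and the interval of the ratio starts at 3.59. Next came the Gm6377 and Gpr183 cluster with 23 UMIs, 13.9 CPM (8.80 to 20.8), against 0 in 853 day 0 cells, with a ratio interval that starts at 7.06. Cd9 and Fcrl5 are surface proteins that are high on marginal zone and B-1 cells. The cluster led by Rgs1, Nt5e and Cd80 again held 4 of the 7 positive cells of day 0.

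**Figure D4:**
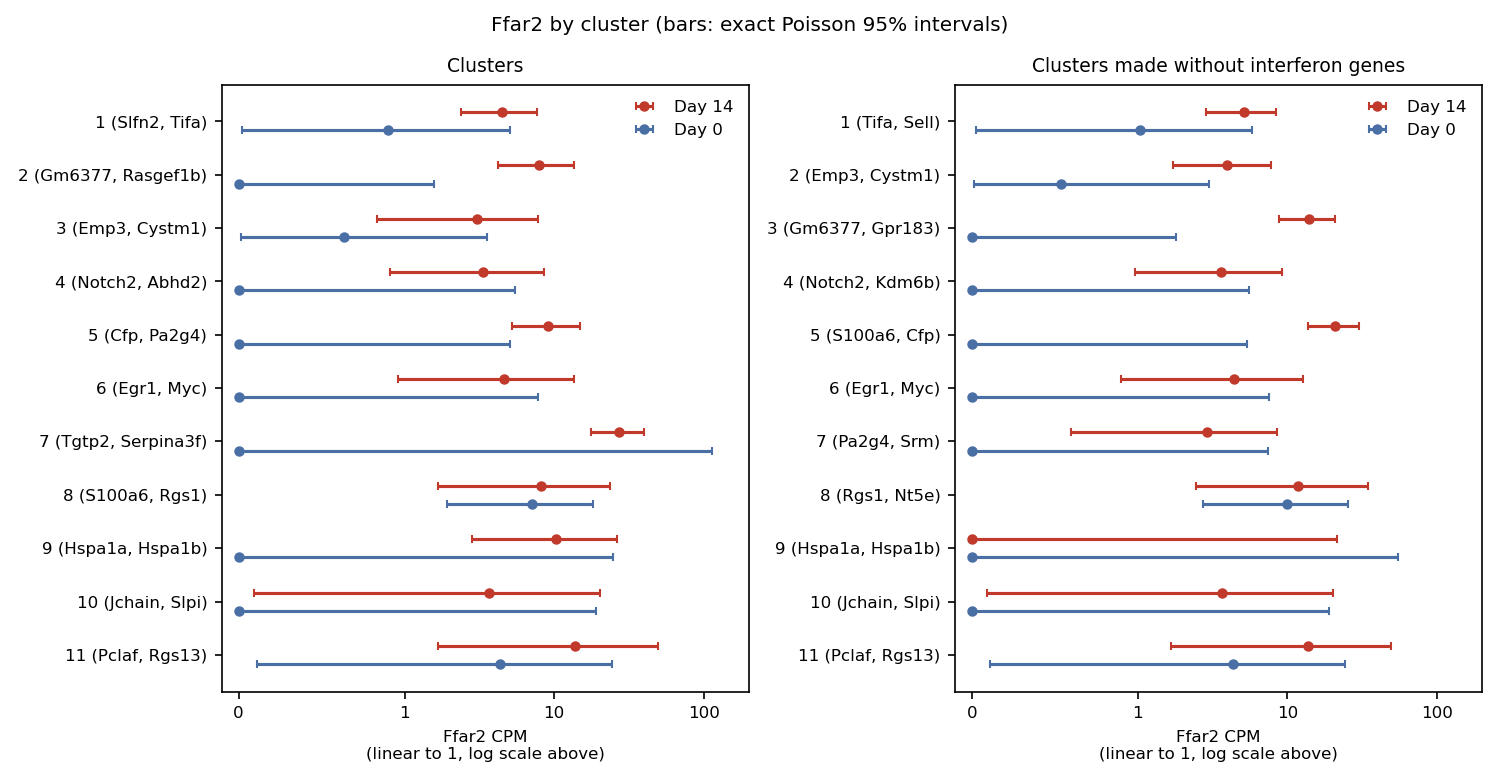
Ffar2 CPM by cluster, for clusters made without Ffar2 (left) and without Ffar2 and the interferon genes (right), at day 14 and day 0; clusters carry their first 2 leading genes, and bars are exact Poisson 95% intervals. The clusters led by Tgtp2 (27.1 CPM, left) and by S100a6 and Cfp (20.7, right) were highest at day 14.

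The genes that went with Ffar2 were ranked by the ratio of their level in the 79 positive over the 4613 negative cells of day 14. Of the 3101 genes with at least 10 UMIs expected in the positive cells, 11 (0.355%) were higher by 2-fold or more and 110 (3.55%) lower by as much, with a median log2 ratio of -0.09. Near that minimum, counting error alone passes 2-fold more readily on the lower side. Its part in the 110 was not tested. The cells were chosen by Ffar2 and the interferon genes were part of what singled the gene out, so these ratios describe and are no test. Among the genes with the highest lower bounds were interferon-induced genes, and Plac8 and Apoe of the B-1 and memory list.

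Serpina3g, an interferon-inducible protease inhibitor, had 67 UMIs in the positive cells, 223 CPM, against 902 UMIs and 79.9 CPM in the negative cells, a ratio of 2.79 (2.15 to 3.58), which was 1.85 (1.24 to 2.66) without cells of over 2 times the median UMIs of their cluster. It was seen in 36.7% of positive and 13.6% of negative cells. It has close relatives, Serpina3f among them, and how reads divide within the family was not checked. Zbp1, a sensor of Z-form nucleic acid, had a ratio of 2.47 (1.68 to 3.51). Psmb9, a subunit of the immunoproteasome, stood at 2.17 (1.71 to 2.74), with 55.7% of positive and 22.8% of negative cells holding it, and Tap1, which pumps peptides to MHC class I, at 1.96 (1.45 to 2.58). Samhd1, an antiviral dNTP hydrolase, stood at 2.10 (1.66 to 2.62), and AW112010, a transcript known from interferon-treated and infected cells, at 2.60 (1.86 to 3.54). Of these interferon-related genes, Serpina3g, Zbp1 and Tap1 were themselves at least 1.5-fold higher at day 14 than at day 0, with ratios of 4.31, 3.63 and 1.73. AW112010, Psmb9 and Samhd1 were not, at 1.42, 1.43 and 1.33.

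Cfp, the gene of properdin, which stabilises complement on surfaces, had the highest ratio of the named genes, 3.12 (2.09 to 4.51), with 31 UMIs in 17 positive cells. Against negative cells of the same cluster and like depth it was 1.85 (1.20 to 2.76), and in cells thinned to 1000 UMIs 0.499 (0.0125 to 2.83) from too few UMIs to read. Plac8, high on B-1 cells, had 569 UMIs in the positive cells and a ratio of 1.60 (1.47 to 1.74), but 83 of them came from 1 cell, and without cells of over 2 times the median UMIs of their cluster it was 1.07 (0.937 to 1.21). Apoe, which encodes a lipid carrier, had 98 of its 321 UMIs in 1 positive cell and a ratio of 1.72 (1.53 to 1.92), which was 1.11 (0.936 to 1.32) without those large cells and 0.660 (0.391 to 1.04) over the 9 cells with 2 or more Ffar2 UMIs. Over those 9 cells Serpina3g stood at 5.15, AW112010 at 5.81, Zbp1 at 5.64, Cfp at 6.92 and Mgat4a at 4.20. Pkib, an inhibitor of protein kinase A, stood at 1.92 (1.498 to 2.42), and Mgat4a, a glycosyltransferase, at 2.34 (1.47 to 3.57). Without the large cells these 2 genes were at 1.44 (1.02 to 1.99) and 1.93 (1.02 to 3.34). In thinned cells they were at 2.35 (1.46 to 3.60) and 2.73 (1.08 to 5.77). Plekho2, Ubac2 and Stmn1 were also past 2-fold, at 2.07, 2.02 and 2.08; Plekho2 and Ubac2 were named after their values were seen.

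The genes lowest in positive cells had few UMIs in them. Slpi, a secreted protease inhibitor of plasma cells, had 1 UMI in the positive cells and 1091 in 33 negative cells, a ratio of 0.0345, which turned to 1.96 (0.0473 to 12.2) without the plasma-like and germinal center B-like clusters. Jchain, the joining chain of secreted IgA and IgM, had 175 UMIs in positive cells, 161 of them in 1 cell, and a ratio of 0.305 (0.261 to 0.354). Without that pair of clusters it was 0.838 (0.270 to 1.98), but against negative cells of the same cluster and like depth 0.124 (0.106 to 0.144). Without the positive cell with the most plasma marker UMIs, a setting chosen after seeing the data, Jchain stood at 0.0257 (0.0141 to 0.0432). Hspa1a, a heat shock chaperone, stood at 0.0847 (0.0175 to 0.248) with 3 UMIs, and Msi2, Tsc22d1, Wfdc17, Asph and Txlna between 0.0935 and 0.243 with 1 to 6 UMIs each. Of these, Tsc22d1 stood at 1.17 (0.802 to 1.64) when all barcodes were taken and at 1.11 (0.302 to 2.86) over the cells with 2 or more Ffar2 UMIs. All barcodes include those that the authors left out of their cell set.

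**Figure D5:**
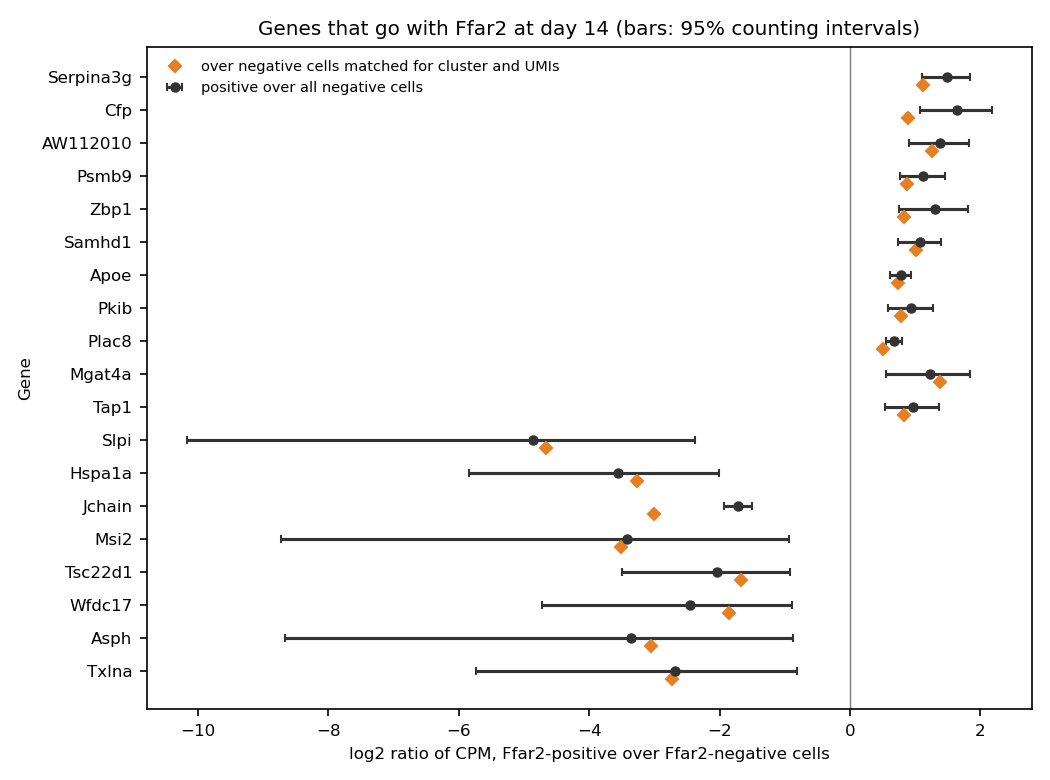
Log2 ratio of CPM in Ffar2-positive over Ffar2-negative cells at day 14 for genes named by the lower and upper bounds of the ratio, with 95% counting intervals (dots), and the same ratio over 624 negative cells of the same cluster and like depth (diamonds). Serpina3g, Cfp, AW112010 and Zbp1 had ratios from 2.47 to 3.12, and their diamonds lie from 1.78 to 2.38.

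Over the whole interferon-gamma list, positive cells held 2090 CPM at day 14 and negative cells 1307 CPM, which is a ratio of 1.60 (1.47 to 1.73). From the 7 positive cells of day 0 it was 2.02 (1.53 to 2.62), but 39 of the 57 list UMIs came from 1 cell of 16163 UMIs, and without that cell it was 1.29 (0.765 to 2.04). Of its 11 members with enough UMIs, 2 were at least 2-fold higher and 0 lower, beside 0.355% and 3.55% of all genes counted. The median log2 ratio was 0.55, beside the -0.09 of all genes. Icam1, an adhesion molecule, stood at 1.85 (1.10 to 2.92), Ifi47 at 1.69 (0.972 to 2.74) and Psme1, a proteasome activator and the most abundant member counted, at 1.46 (1.22 to 1.74). The list sum was 1.40 (1.29 to 1.53) over negative cells matched for cluster and depth, 1.36 (1.21 to 1.51) without the interferon cluster, 1.58 (1.34 to 1.86) in thinned cells and 2.27 (1.90 to 2.70) over the 9 cells with 2 or more Ffar2 UMIs. It stayed above 1 in each of these. Between the days, the list's members were themselves higher at day 14 by at least 1.5-fold in 17 of the 29 with 20 or more UMIs and lower in 3, beside 2.21% and 7.56% of all genes at that minimum, with a median log2 difference of 0.80.

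The type I interferon list, of genes induced by interferon-alpha and beta, had a sum ratio of 1.09 (1.03 to 1.16) at day 14 and 0.862 (0.693 to 1.06) at day 0. Of 13 members counted, 1, Zbp1, was at least 2-fold higher and 0 lower, beside 0.355% and 3.55% of all genes counted, and the median log2 ratio was -0.10, on the other side of 0 from the sum. Ly6a, a surface antigen, stood at 1.68 (1.44 to 1.95), Ifi206 at 1.67 (1.05 to 2.54) and Ifi27l2a at 1.51 (1.28 to 1.77), while Ly6e, the most abundant, was at 0.878 (0.798 to 0.964). Without the interferon-gamma cluster the sum was 0.970 (0.900 to 1.04). The MHC class I processing list gave 1.17 (1.13 to 1.21), with 1 of 18 members at least 2-fold higher and 0 lower, beside the same 0.355% and 3.55%, and a median log2 ratio of 0.37. In it Tap2 stood at 1.60 (0.980 to 2.47), H2-T22 at 1.53 (1.08 to 2.10) and B2m, the light chain of MHC class I, at 1.18 (1.11 to 1.25).

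Genes of B-1 and memory cells gave a list sum of 1.31 (1.24 to 1.39), which rests on Plac8 and Apoe: without that pair it was 0.977 (0.894 to 1.07), and without cells of over 2 times their cluster's median UMIs 1.01 (0.937 to 1.09). Beside the shares over all genes of 0.355% at least 2-fold higher and 3.55% lower, which hold for each list here, the list had 0 of 15 members at least 2-fold higher, 1 lower and a median log2 ratio of 0.15. Vim, an intermediate filament gene, stood at 1.78 (1.37 to 2.29), and S1pr1, the receptor that lets lymphocytes leave tissue, at 0.445 (0.229 to 0.781), with S100a10 at 0.560 (0.358 to 0.836). The activation and antigen response list stood at 0.944 (0.879 to 1.01), with 0 of 14 members higher, 1 lower and a median log2 ratio of -0.11. In it stood Nfkbid, a nuclear NF-kappa-B regulator, at 0.363 (0.187 to 0.637), Nr4a1, an immediate response gene of the B cell receptor, at 0.617 (0.451 to 0.825), and the activation antigen gene Cd83 at 1.03 (0.904 to 1.17). Icosl and Srm stood at 0.662 (0.316 to 1.23) and 0.709 (0.352 to 1.28). Cell cycle genes summed to 2.07 (1.74 to 2.45) from 145 UMIs in the positive cells. Stmn1, which destabilises microtubules, gave 26 of them, 9 in 1 cell, and stood at 2.08 (1.34 to 3.08). Pcna, the replication clamp, gave 27 and stood at 1.09 (0.715 to 1.60). These were the 2 members counted, and the other UMIs came from members too low to count singly. The cell cycle sum was run under none of the alternatives. Of the positive cells 2 (2.53%) lay in the germinal center B-like cluster, against 0.325% of the negative cells. Their part in the sum was not tested. The germinal center list, with 0 members counted singly, gave 1.81 (1.28 to 2.499) from 39 UMIs, 21 of them in 1 cell.

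The list of genes for IgA switching and support gave 0.508 (0.461 to 0.558), which Jchain dominates, and of its 11 members counted 0 were at least 2-fold higher and 1, Jchain, lower, with a median log2 ratio of -0.24. The integrin chain gene Itgb7, which guides cells to the gut, stood at 1.38 (0.825 to 2.18), the chemokine receptor gene Ccr6 at 1.38 (0.887 to 2.05) and the cytokine receptor gene Il21r at 0.734 (0.515 to 1.02). The plasma list stood at 0.621 (0.570 to 0.675), with 0 of 7 members higher and 2 lower (Slpi and Jchain), beside 0.355% and 3.55% of all genes counted, and a median log2 ratio of 0.06, on the other side of 0 from the sum. It held Creld2 at 1.68 (1.06 to 2.55) and Mzb1 at 1.46 (1.28 to 1.66), of which 20 of 23 and 97 of 250 UMIs came from 1 cell. Mature B cell genes stood at 0.905 (0.887 to 0.924), with 0 of 12 past 2-fold either way and a median log2 ratio of -0.13. They include Cd74 at 0.895, Ebf1 at 0.878, Cd22 at 0.878, Fcer2a at 0.772 and Fcmr at 0.743.

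Ffar2 was set beside the genes of its own signalling chain. Among the fatty acid and metabolite receptors, 8 besides Ffar2 had at least 20 UMIs over both libraries, and at day 14 over day 0, 0 were at least 1.5-fold higher and 1 lower, beside 2.21% and 7.56% of all genes at that minimum, with a median log2 difference of 0.04. Ffar1 had 94 UMIs in 90 cells at day 14, 8.11 CPM, and 55 UMIs in 53 cells at day 0, 6.80 CPM, a ratio of 1.19 (0.846 to 1.70). Ffar3 and Ffar4, the receptor for unsaturated long-chain fatty acids, had 0 UMIs in the kept cells of both libraries, as had Hcar1 and Gpr84, while Hcar2, the receptor of niacin and beta-hydroxybutyrate, had 1 UMI and Gpr35 had 2 at day 14 and 0 at day 0. The retinoic acid receptor gene Rara was the member that was lower, with 18.8 CPM at day 14 against 32.1 at day 0, which gives 0.585 (0.486 to 0.703). Between positive and negative cells of day 14, 0 of the 2 receptors counted were 2-fold apart, beside 0.355% of all genes counted higher and 3.55% lower. Gpr183 stood at 1.06 (0.725 to 1.49) and Gpr132 at 0.762 (0.516 to 1.09).

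Most of the G protein, arrestin, kinase and phospholipase genes listed as signalling partners of FFAR2 had UMIs at both days. Of the 38 in the matrices, 5, with Gnai1 and Plcb1 among them, had 0 UMIs in both libraries. Of 28 measured, 0 were at least 1.5-fold higher at day 14 and 3 lower, beside 2.21% and 7.56% of all genes at the same minimum, with a median log2 difference of -0.10. The 3 were Gna15, a Gq class subunit, at 0.444 (0.210 to 0.908), Gnb4 at 0.299 (0.121 to 0.681) and the receptor kinase Grk3 at 0.485 (0.240 to 0.960). Gnai2, the most abundant Gi subunit, had 481 CPM at day 14 against 484 at day 0, which gives 0.994 (0.954 to 1.04), and Gnaq had 11.3 and 10.4, a ratio of 1.09 (0.821 to 1.45). Arrb2, an arrestin known to bind FFAR2, stood at 0.816 (0.578 to 1.15) and Plcb2 at 1.09 (0.749 to 1.60). In positive over negative cells of day 14, Gnai3 was lower, at 0.360 (0.144 to 0.745) from 7 UMIs. Of the 11 counted, 0 were 2-fold higher and 1 lower, beside 0.355% and 3.55% of all genes counted, with a median log2 ratio of -0.01. Gnai2 stood at 1.19 (1.02 to 1.38), Itpr2 at 1.36 (0.784 to 2.20) and Gng2 at 1.24 (0.755 to 1.94).

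Genes that carry or use short-chain fatty acids, and the histone deacetylases that butyrate inhibits, numbered 16 measured, of which 1 was at least 1.5-fold higher at day 14 and 1 lower, beside 2.21% and 7.56% of all genes at the same minimum, with a median log2 difference of -0.08. Acss2, which turns acetate into acetyl-CoA, had 8.02 CPM at day 14 against 4.94 at day 0, which gives 1.62 (1.11 to 2.41). The monocarboxylate carrier gene Slc16a1 had 7.24 CPM at day 14 against 10.999 at day 0, which gives 0.659 (0.483 to 0.898) and, with TMM factors, no longer counted as 1.5-fold lower. In positive over negative cells Bsg, the partner of that carrier, stood at 1.34 (0.957 to 1.83), Acat1 at 0.762 (0.363 to 1.41) and Hdac1 at 1.05 (0.677 to 1.56).

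Because neutrophils and gut epithelial cells are known sources of Ffar2, markers of other cell types were read in the Ffar2-positive cells. The 79 positive cells of day 14 held 0 UMIs of S100a8, S100a9, Csf3r, Cxcr2, Lcn2 and Lyz2, and 0 of Muc2, Agr2, Pyy, Gcg and Chga. Pyy, Gcg and Chga were at 0 in the negative cells as well, and Muc2 and Agr2 were seen in 0.455% and 0.390% of those. Spink4 and Epcam went the other way, from 2 and 3 UMIs in the positive cells. Spink4 was seen in 2.53% of positive and 0.347% of negative cells, and Epcam in 3.80% and 1.80%. Their 32 neutrophil list UMIs, 17 of them Il1b, came from 4 of 25 genes and stood at 102 CPM, beside 103 in the negative cells, where the total for these marker lists is that of all genes. The epithelial list gave 6 UMIs, 19.0 CPM, beside 22.1 in the negative cells, with 14 of 18 genes at 0. Leaving out every barcode with a S100a8 or S100a9 UMI left 89 Ffar2 UMIs at day 14 and 7 at day 0, and a ratio of 8.89 (4.14 to 22.8). T cell markers gave 8 UMIs, 5 of them Cd28 and 0 Cd3e, 25.4 CPM beside 9.17 in negative cells, dendritic markers 8 UMIs, 25.4 beside 12.2, and monocyte and macrophage markers 10 UMIs, 31.7 beside 19.7. Pecam1, an endothelial marker that lymphocytes also carry, gave 24 of the 27 UMIs of the stromal, endothelial and erythroid list and was seen in 27.8% of positive and 10.6% of negative cells, a ratio of 1.66 (1.05 to 2.49). The part of these cell types in the Ffar2 result was not tested beyond these counts.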

How the data were processed

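Transcripts were counted per cell in 1 library of colonic lamina propria B cells at day 14 and 1 at day 0. The authors' deposited matrices hold raw UMI counts. Per the file headers the software was Cell Ranger 3.0.1, and the submitters' processing notes name mm10 as the build, with no alignment settings. The deposited natural log tables hold ln(1 + UMIs × 10000 / total UMIs of the cell): 774180 of 774180 day 14 and 542850 of 542850 day 0 values compared matched within a relative tolerance of 0.001. The submitters' processing notes name Seurat 3.0. The tables' cells are the cell set, where 88 of 4780 day 14 barcodes and 86 of 3376 day 0 barcodes are missing for a reason not stated, and every level was computed here from the counts.

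Sums were divided by all UMIs outside immunoglobulin and mitochondrially encoded genes. Intervals are exact (Poisson, Clopper-Pearson, conditional ratio), at 95%. UMIs are not free of capture and mouse-to-mouse variation, which 1 library per group cannot show. Clusters are Leiden clusters (resolution 0.8, 2000 variable genes, 20 components, 20 neighbours, Scanpy 1.11.5, leidenalg 0.10.2) of log-scaled counts without Ffar2. No doublets were removed. Besides Ffar2, the named genes are the 12 whose positive over negative ratio has the highest lower bound, the 8 whose upper bound is lowest (no immunoglobulin, mitochondrial, ribosomal or predicted genes), up to 4 members farthest from 1 and the most abundant member of each list, and the fatty acid receptors; some of these genes are not reported here. Members and lists were chosen with earlier results of these data known. The ratios were tested on simulated Poisson counts of the group sums, with no variation between cells. Of 3101 genes, 41 of 50 simulated at 2.5-fold and 50 of 50 at 4-fold in the positive cells passed 2-fold, as did 39 of 2901 unchanged genes in either direction. The simulation does not cover genes whose UMIs come largely from 1 cell. GENCODE M21 holds 30934 of the 31053 gene IDs. Alternatives changed the scaling (edgeR 4.0.16 TMM among them), the cell set, the definition of a positive cell and the minimum UMIs.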

Additional observations from a re-analysis of the deposited data

Results flagged for a closer look

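Ffar2 was also present in barcodes that the authors left out of their cell set. Above, left-out barcodes enter only as the T cell marker background and where all barcodes were taken. In the latter setting those with Ffar2 count as positive cells. At day 14, 3 of the 88 left-out barcodes held 8 Ffar2 UMIs (1, 5 and 2), against 0 UMIs in the 86 left-out barcodes of day 0. The 3 barcodes had 8032, 17720 and 14588 UMIs in all and held the goblet cell genes Muc2 (691, 366 and 964 UMIs) and Spink4 (316, 1310 and 805 UMIs), with 15, 34 and 9 Epcam UMIs and 0 of Cd79a and Ms4a1. Among left-out barcodes with at least 10 UMIs of epithelial markers, 3 of 13 held Ffar2 at day 14, 58.5 CPM (25.3 to 115), and 0 of 11 at day 0, where the upper limit is 23.7. The 13 held 2608 Muc2 and 2923 Spink4 UMIs, and the 11 held 61 and 227. These sets differ in their goblet cell RNA, so the days cannot be compared there. The 4692 cells kept at day 14 held 21 Muc2 and 18 Spink4 UMIs in all, and the 79 Ffar2-positive cells 0 and 2. The part of free epithelial RNA in the B cell counts was not tested.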

How the results depend on the processing

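The Ffar2 ratio of 8.87 lay between 6.82 and 18.3 under every alternative, among them 9.53 with TMM factors, 9.58 with median-of-ratios factors, and, chosen after seeing the data, 11.1 and 11.2 with cluster shares made equal. No paired analysis was possible because each day is 1 library. Of 344 recomputed values, 260 stayed within the counting interval or within 1.5 times of the count reported and 78 did not, among them 2 ratios short of 1.5-fold that crossed 1. Another 6, of ratios past 1.5-fold, turned direction. The cause of these moves was not tested, except where fewer genes or cells entered by construction.

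The 11 genes at least 2-fold higher and 110 lower with Ffar2 became 41 higher with all barcodes, 61 lower without cells of over 2 times their cluster's median UMIs, 4 higher without the interferon-gamma cluster, 7 higher without the plasma-like and germinal center B-like clusters, 7 and 71 against matched negative cells, 4 and 38 over cells with at least 2 Ffar2 UMIs, 51 and 344 at 5 expected UMIs, and 2 and 31 in thinned cells. The interferon-gamma sum of 1.60 was 1.45 with all barcodes, 1.36 without its cluster, 1.40 against matched cells and 2.27 at 2 or more Ffar2 UMIs. The type I sum of 1.09 was 1.03 with all barcodes, 0.970 without the interferon-gamma cluster, 1.56 at 2 or more Ffar2 UMIs and 1.23 in thinned cells. At day 0 the interferon-gamma sum of 2.02 was 1.29 without the positive cell with the most list UMIs, and at day 14 the B-1 and memory sum of 1.31 was 0.977 without Plac8 and Apoe and 1.01 without cells of over 2 times their cluster's median UMIs, all chosen after seeing the data. Shares of positive cells in thinned cells were 0.562% at day 14 and 0.0307% at day 0.

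The 2 that crossed 1 were the type I sum (0.970) and the B-1 and memory sum (0.977). Direction turned for Tsc22d1 with all barcodes (1.17) and at 2 or more Ffar2 UMIs (1.11), for Apoe there (0.660), for Cfp in thinned cells (0.499), and for Slpi without the plasma-like and germinal center B-like clusters (1.96) or without switched cells (1.495, chosen after seeing the data). With no minimum of UMIs, 5 receptors were higher at day 14, and 3 signalling genes were higher and 5 lower. All of these higher genes had 0 UMIs at day 0 and at most 6 at day 14, so their ratios have no denominator. The share of all genes called with no minimum was not computed. With TMM factors 1 signalling gene was higher and 0 short-chain fatty acid genes lower. Depth limits most values here: 1 library per day, 7 positive cells at day 0 and mostly 1 UMI per positive cell.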
